A study of Sus scrofa with 8 samples.

Results

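The genes of ion channels and aquaporins were followed through a month of primary culture of pig oviductal epithelium. Members were all genes whose symbol in the platform annotation begins with KCN, CACN or CLCN, is CFTR, or is a numbered member of the SCN, SCNN, TRPC, TRPM, TRPV, CLIC, ANO or AQP families. This rule found 126 of the 10901 named genes on the array. The symbol rule used no measured value, except that for the 7 members with more than 1 probe set the set with the highest mean over the 8 arrays was kept. By role there were 23 voltage-gated potassium channel pores, 14 regulatory subunits of potassium channels, 10 inward rectifiers, 9 tandem-pore-domain potassium channels and 6 calcium- or sodium-activated ones. Calcium channels gave 6 pore subunits and 11 auxiliary subunits, and the TRP families gave 16 genes. There were 7 anoctamins, 4 genes of the CFTR and CLCN group, 2 CLIC proteins, 10 aquaporins, 2 subunits of the epithelial sodium channel and 6 genes of voltage-gated sodium channels. TRPC4AP met the rule by its letters, although it encodes a partner protein of a TRP channel and not a channel.

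Epithelial cells were scraped from oviducts of Landrace crossbred gilts (45 animals of about 9 months with regular oestrous cycles), dispersed with collagenase and trypsin, pooled and grown in medium with 10% serum. The 4 groups were cultures harvested after 24h, 7 days, 15 days and 30 days, with 2 arrays each, and differed, by their labels, in time alone. No genotype, drug or hormone separates them, and tissue that was never cultured was not analysed here. The labels name the arrays of a time biological replicates without saying whether they hold separate pools, and p-values therefore rest on a spread between samples that may be technical alone. RNA was amplified and read on Affymetrix whole-transcript arrays, and values are log2 expression per probe set, so a difference of 1 is a 2-fold change.

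Oviductal fluid is formed by ion transport across the epithelium, and water follows the ions. Sodium pumped out at the basolateral side drives chloride entry, chloride and bicarbonate leave through apical anion channels such as CFTR, and potassium channels keep the cell negative inside so that anions go on leaving. Aquaporins let water and, in some members, glycerol cross the membrane. Voltage-gated sodium and calcium channels are best known from nerve and muscle, where they carry electrical signals and trigger contraction.

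Across the 8 arrays, array medians lay between 4.69 and 4.77. Arrays of a time correlated with r of 0.990 to 0.995 over probe sets, and probe sets are no replicates. Between the arrays at 24h, 3 members lay more than 1 log2 unit apart, against 0 members at each later time. With so few arrays precision is limited, and the standard error of a log2 change had a median of 0.13 over all genes. Most members read dim. The median of their means over the 8 arrays was 3.76, against 5.22 for all genes, and 55 of 126 members were in the dimmest 25% of genes. For orientation, 12 smell and taste receptor genes, which have no known part in this tissue, had a median of 3.08 and a 90th percentile of 4.35. The means of 36 members lay above that percentile and those of 90 did not, so for most members a low reading cannot be told from absence. Of the 27 members that fell against 24h at any time, 17 read under 4.35 at a time they fell, and there the fold change, and any rank or split by step, is limited by the floor of the array. They were CLIC2, TRPV6, ANO5, AQP3, AQP9, AQP10, CACNB2, KCNA3, KCNA4, KCND3, KCNE4, KCNJ14, KCNJ15, KCNK5, KCNK9, KCNK13 and KCNRG.

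RNA of cell type markers moved with time in culture. Of 10 measured oviduct epithelial markers, 7 fell by 7 days, 7 fell and 2 rose by 15 days, and 8 fell by 30 days, all against 24h. Summed on the linear scale they read 15330 and 18110 on the 24h arrays, 9525 and 9994 after 7 days, 9288 and 9956 after 15 days, and 5270 and 6472 after 30 days. EPCAM, an epithelial adhesion molecule, had a mean of 11.23 at 24h and 3.31 at 30 days, a reading within the range of the smell and taste receptors. Of the simple keratins, KRT8 and KRT19 stood at 11.34 and 11.28 at 30 days and were not called against 24h, although KRT19 was 1.56-fold lower than at 15 days. KRT18 went from 9.12 at 24h to 7.43 at 30 days, 3.22-fold lower (adjusted p = 2.88e-05 in limma). Of 12 measured fibroblast markers, 10, 9 and 10 rose by 7, 15 and 30 days, and their sum was 625 and 681 at 24h, 5042 and 5793 at 7 days, 11931 and 11992 at 15 days, and 13520 and 14785 at 30 days. Of 7 smooth muscle markers, 5, 6 and 6 rose, with a sum of 2374 and 2815 at 24h, and 7682 and 8000 at 30 days. Of 6 measured neuron and glia markers 0 were called by limma in any comparison (at an unadjusted p under 0.05, 1 was lower at 15 than at 7 days), and their sum stayed between 74 and 90. Of 10 measured markers of ciliated cells, the other main cell type of oviduct epithelium beside secretory cells, 4, 5 and 4 fell and 0 rose, with a sum of 191 and 250 at 24h, 122 and 136 at 7 days, 121 and 126 at 15 days, and 114 and 121 at 30 days. SPAG6 and DNAH7, both of the ciliary axoneme, had the largest falls of these by 7 days (4.16-fold and 3.78-fold). They then read 3.14 and 3.50, under 4.35, so the floor of the array limits these folds. FOXJ1, DNAH9, CFAP43, TEKT2 and CCDC39 were not called at any time against 24h. Of 6 endothelial markers 3, 2 and 2 fell, and of 8 leukocyte markers 1, 2 and 3 fell. From 7 to 15 days the endothelial marker PECAM1 rose 1.9-fold. At 7, 15 and 30 days against 24h, 15.4%, 18.1% and 21.1% of all genes fell, and 18.3%, 19.3% and 20.2% rose. No marker list was tested against all genes. The part of these shifts in any channel result was not tested, and in bulk RNA fewer cells of a type cannot be told apart from less RNA per cell.

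By 7 days, 29 of 126 channel genes passed an adjusted p of 0.05 in limma after Benjamini-Hochberg correction, here termed called (23.0%, against 33.7% of all genes). Of these, 11 rose (8.73%, against 18.3% of all genes) and 18 fell (14.3%, against 15.4%). At 15 days against 24h, 32 were called (25.4%, against 37.4%), of which 9 rose (7.14%, against 19.3%) and 23 fell (18.3%, against 18.1%). At 30 days against 24h, 33 were called (26.2%, against 41.2%), of which 12 rose (9.52%, against 20.2%) and 21 fell (16.7%, against 21.1%). The shares of channel genes that fell lay near those of all genes or below them, and the shares that rose were smaller than those of all genes. Counts by role below are to be read beside these shares of all genes, and no role was tested against the others. Without the dimmest 25% of genes, 35.2%, 38.0% and 39.4% of the 71 members left were called, against 44.0%, 48.8% and 53.4% of all genes left. The median change over the 126 members was -0.03, -0.09 and -0.05, against -0.01, -0.04 and -0.02 over all genes. In the moderated F test over the 4 times 36 members were called (28.6%, against 46.3% of all genes), and 84 were called in none of the 5 comparisons (66.7%, against 48.3% of all genes). A call with a change of at least 2-fold was made for 14, 18 and 16 of the 126 members at 7, 15 and 30 days against 24h. Such calls were made for 9.89%, 12.8% and 16.7% of all genes. The share of members was slightly larger than that of all genes at 7 and 15 days, and smaller at 30 days. From 7 to 15 days 1 member had such a call (3.62% of all genes), and from 15 to 30 days 3 did (3.27%), both smaller shares than of all genes.

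**Figure D1:**
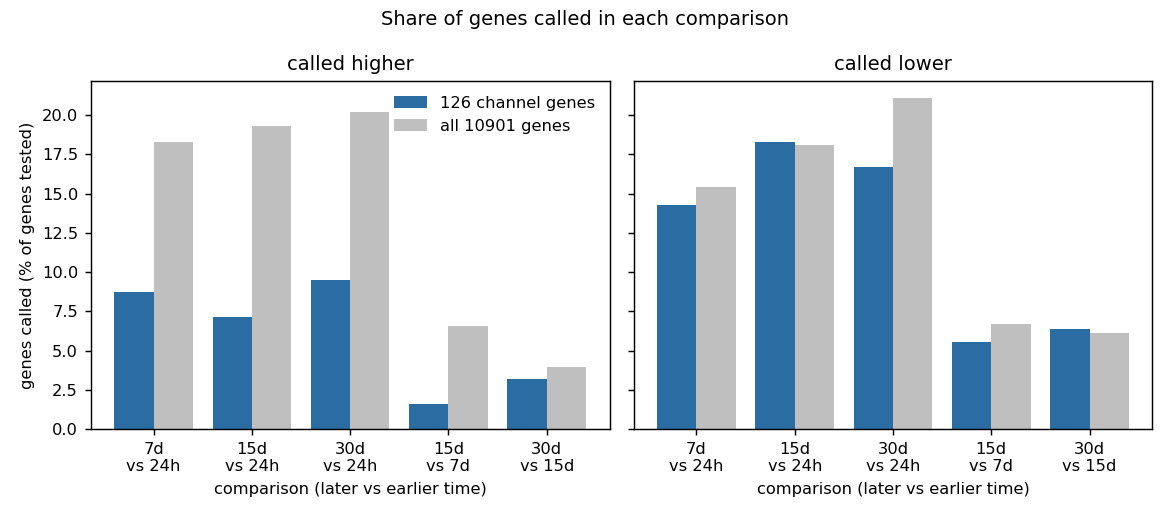
Share of genes called in limma at an adjusted p under 0.05, in percent of genes tested (vertical axis), for the 126 channel genes (blue) and all 10901 genes (grey) in each comparison, with increases at left and decreases at right. In the comparisons with 24h, 7.14% to 9.52% of channel genes were called higher against 18.3% to 20.2% of all genes.

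CFTR, the apical anion channel opened by cyclic AMP, rose at an early stage and fell back in part. Its log2 values were 5.89 and 6.18 at 24h, 8.66 and 8.55 at 7 days, 8.62 and 8.61 at 15 days, and 8.13 and 7.63 at 30 days. Both arrays of every later time lay above both at 24h, and those at 30 days lay below those at 7 and 15 days. The increase was 5.93-fold at 7 days (log2 change 2.57 ± 0.17, SE, adjusted p = 4.34e-06 in limma), 5.97-fold at 15 days and 3.58-fold at 30 days. The fall from 15 to 30 days (-0.74 ± 0.17, adjusted p = 0.0223 in limma) was no longer called when either 15 days array was left out (adjusted p = 0.125 and 0.135) or replicate 2 of 30 days (-0.49, adjusted p = 0.161).

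ANO1, the calcium-activated chloride channel, had a course of the same shape. It read 4.66 and 5.00 at 24h, 6.50 and 6.35 at 7 days, 6.01 and 6.27 at 15 days, and 5.27 and 5.37 at 30 days. It rose by 1.59 ± 0.15 (SE) by 7 days and 1.31 ± 0.15 by 15 days, then fell by 0.82 from 15 to 30 days (adjusted p = 0.00624 in limma, 0.0746 without replicate 2 of 15 days). The remaining increase at 30 days (0.49 ± 0.15, adjusted p = 0.0217 in limma) was lost without replicate 1 of 24h (0.32, adjusted p = 0.155) or without replicate 1 or 2 of 30 days (adjusted p = 0.0561 and 0.112). Of the 7 anoctamins, 2 rose and 1 fell by 7 days, 1 rose and 1 fell by 15 days, and 1 rose and 2 fell by 30 days.

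ANO6, which moves phospholipids between membrane leaflets, read 9.32 and 9.34 at 24h and 8.41 and 8.40 at 30 days, with 8.70 and 8.56 at 7 days and 8.55 and 8.51 at 15 days. Its fall was small but exceeded the spread between arrays at all 3 later times (-0.70 ± 0.11, -0.80 ± 0.11 and -0.93 ± 0.11, SE). ANO5, an anoctamin of muscle and bone, read 4.41 and 4.46 at 24h, 5.69 and 5.23 at 7 days, 4.17 and 3.88 at 15 days, and 3.32 and 3.58 at 30 days. It was the 1 member called in both directions against 24h, 2.03-fold higher at 7 days and 1.98-fold lower at 30 days. ANO10 stayed between 7.68 and 7.95 on all arrays and was not called. ANO2, ANO3 and ANO4 read between 2.71 and 3.20 on every array, within the range of the smell and taste receptors, and were not called.

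The CLCN genes measured here encode chloride-proton exchangers of endosomes and lysosomes. CLCN7, the lysosomal one, read 5.47 and 5.57 at 24h, 6.92 and 6.87 at 7 days, 6.57 and 6.30 at 15 days, and 6.99 and 7.18 at 30 days. It rose 2.58-fold, 1.88-fold and 2.95-fold against 24h. Its dip from 7 to 15 days (-0.46 ± 0.13, SE, adjusted p = 0.0425 in limma) was lost when any array of 7, 15 or 30 days was left out (adjusted p = 0.0519 to 0.315), and the rise from 15 to 30 days (0.65 ± 0.13) without replicate 2 of 15 days or of 30 days (adjusted p = 0.120 and 0.0930). CLCN6, of late endosomes, moved late. It read 6.45 and 6.01 at 24h, 6.71 and 6.50 at 7 days, 6.11 and 6.09 at 15 days, and 7.17 and 7.50 at 30 days, a rise of 1.23 ± 0.17 (SE) from 15 days (adjusted p = 0.00128 in limma). CLCN3, of endosomes, lay between 7.13 and 7.79 on all arrays and was not called. In all, 2 of the 4 CFTR and CLCN genes rose by 7 and by 15 days, 3 rose by 30 days, and 0 fell against 24h.

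CLIC5, a protein of the actin-rich cell cortex from the CLIC family, went down, up and down. It read 5.33 and 5.60 at 24h, 4.70 and 4.71 at 7 days, 5.80 and 5.48 at 15 days, and 4.96 and 4.56 at 30 days. All 3 steps were called (-0.76 ± 0.17, 0.93 ± 0.17 and -0.88 ± 0.17, SE). The step to 15 days was lost without replicate 1 of 15 days (adjusted p = 0.0645), as was the step to 30 days (adjusted p = 0.0983, and 0.0813 without replicate 2 of 30 days). The call for 30 days against 24h ended without replicate 2 of 24h or of 30 days (adjusted p = 0.0520 and 0.0657). CLIC2 rested on 1 array. It read 3.89 and 5.12 at 24h and 3.58 to 3.82 on the 6 later arrays. Its fall of 0.92 ± 0.30 at 30 days became -0.30 without replicate 2 of 24h (adjusted p = 0.115) and -1.53 without replicate 1. The same fall at 15 days (-0.89) became -0.28 (adjusted p = 0.156) and -1.51, and both calls also ended without any 1 later array (adjusted p = 0.0504 to 0.145).

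Among the 10 aquaporins, AQP9, a channel for water, glycerol and other small solutes, changed far more than the others. At 24h the others had means of 2.75 (AQP4) to 5.03 (AQP5), which left little room to fall above the floor of the array. AQP9 read 10.21 and 9.97 at 24h, 8.39 and 7.79 at 7 days, 7.24 and 7.13 at 15 days, and 4.10 and 3.86 at 30 days. The arrays of each time lay below all arrays of every earlier time. The mean went from 10.09 ± 0.17 to 3.98 ± 0.17 (SD, n = 2 arrays a time), a 69.2-fold fall (log2 change -6.11 ± 0.19, SE, limma adjusted p = 1.25e-08). The readings at 30 days lay under 4.35, so the size of this fall is limited by the floor of the array. The measured steps were -2.00 by 7 days, -0.91 from 7 to 15 days and -3.21 from 15 to 30 days, and the last ends at that floor. The middle step alone was not held by all arrays (adjusted p = 0.0118 in limma, 0.0531 without replicate 1 of 7 days, 0.0616 and 0.0896 without replicate 1 or 2 of 15 days).

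AQP11, an aquaporin of intracellular membranes, went the other way. It read 4.10 and 4.17 at 24h, 4.89 and 4.52 at 7 days, 5.38 and 5.26 at 15 days, and 5.30 and 4.86 at 30 days, with no overlap between 24h and any later time. It rose by 0.57 ± 0.17 (SE), 1.19 ± 0.17 and 0.95 ± 0.17. The early rise was lost without either 24h array or replicate 1 of 7 days (adjusted p = 0.0651 to 0.169), and the step from 7 to 15 days (0.62) without replicate 2 of 7 days or either 15 days array (adjusted p = 0.129 to 0.223). AQP3, a water and glycerol channel of epithelia, read 4.68 and 4.41 at 24h, 3.59 and 3.75 at 7 days, 3.88 and 3.61 at 15 days, and 3.96 and 4.35 at 30 days. It fell at 7 and 15 days (-0.88 ± 0.16 and -0.80 ± 0.16) and was not called at 30 days (-0.39 ± 0.16). AQP5, the apical water channel of many glands, fell slightly at 15 days (-0.36 ± 0.12, adjusted p = 0.0427 in limma) and was not called at 7 or 30 days. That call ended without replicate 1 of 24h (adjusted p = 0.215), either 7 days array (0.0513) or either 15 days array (0.140 and 0.178). AQP10 also fell at 15 days (-0.39 ± 0.13, adjusted p = 0.0431 in limma), to a mean of 3.31, under 4.35, and is named after its value was seen. AQP2, AQP4, AQP6, AQP7 and AQP8 were not called in any comparison.

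**Figure D2:**
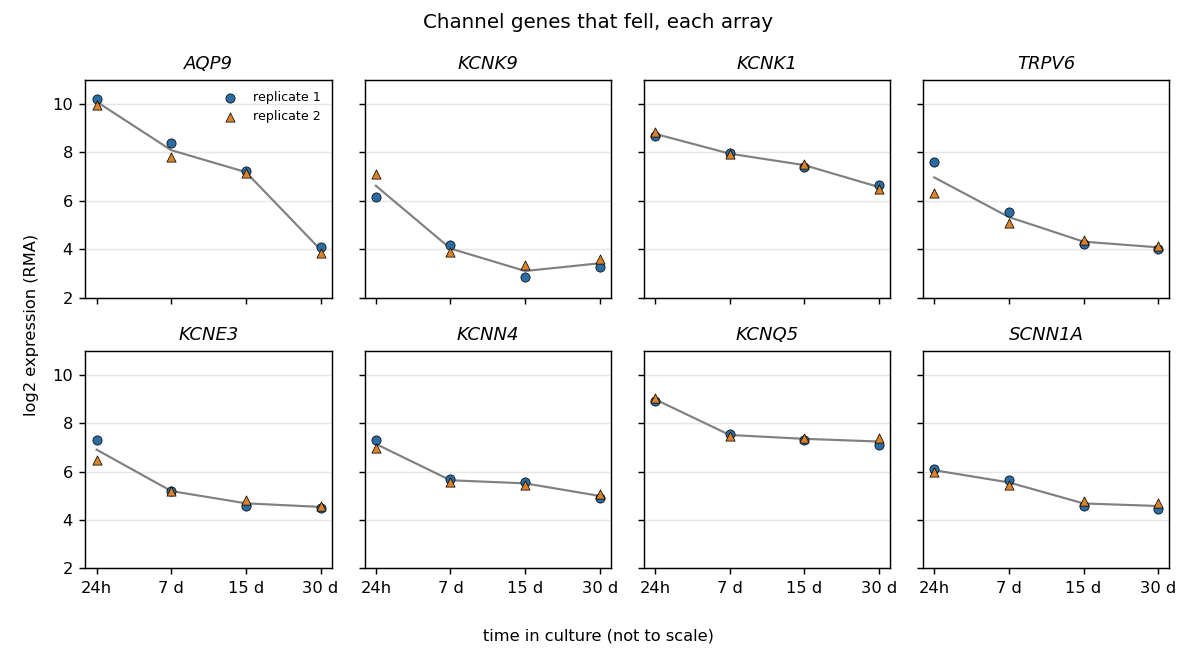
Log2 expression on each array (vertical axis) for 8 channel genes that fell, against time in culture, with circles for replicate 1, triangles for replicate 2 and lines through the mean of the 2 arrays. AQP9 runs from 10.21 and 9.97 at 24h to 4.10 and 3.86 at 30 days, and the 24h arrays of TRPV6, KCNK9 and KCNE3 lie apart from each other.

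Entry of sodium across the apical membrane depends on the epithelial sodium channel. SCNN1A, its alpha subunit, read 6.12 and 6.0 at 24h, 5.65 and 5.46 at 7 days, 4.60 and 4.78 at 15 days, and 4.45 and 4.71 at 30 days. It fell 1.42-fold by 7 days, 2.59-fold by 15 days and 2.79-fold by 30 days (log2 change -1.48 ± 0.13, SE, adjusted p = 1.39e-05 in limma). The step from 7 to 15 days was the larger (-0.87 ± 0.13), and the early call ended without replicate 1 of 24h (adjusted p = 0.0800) or replicate 2 of 7 days (0.0911). SCNN1G, the gamma subunit, lay between 3.44 and 3.81 and was not called. Of the 6 voltage-gated sodium channel genes, 0 were called by limma in any comparison or in the F test (at an unadjusted p under 0.05, 1 was lower at 7 days than at 24h), and the highest of them in signal, SCN2B and SCN4A, lay between 3.89 and 4.40.

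The tandem-pore-domain potassium channels pass a steady leak current that sets the resting potential. Of 9 measured, 0 rose in any limma comparison (0 also at an unadjusted p under 0.05), and 3, 4 and 3 fell by 7, 15 and 30 days against 24h. At these times 18.3%, 19.3% and 20.2% of all genes rose, and 15.4%, 18.1% and 21.1% fell. KCNK9 read 6.14 and 7.10 at 24h, 4.16 and 3.89 at 7 days, 2.84 and 3.36 at 15 days, and 3.25 and 3.58 at 30 days. It fell 6.04-fold by 7 days, 11.5-fold by 15 days (log2 change -3.52 ± 0.29, SE, adjusted p = 1.01e-05 in limma) and 9.21-fold by 30 days. The later readings lay within the range of the smell and taste receptors, so the fold sizes are limited by the floor of the array.

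KCNK1 fell at every step. It read 8.68 and 8.85 at 24h, 7.96 and 7.94 at 7 days, 7.41 and 7.53 at 15 days, and 6.64 and 6.49 at 30 days, so that no array overlapped with those of another time. The steps were -0.82 ± 0.12 (SE), -0.47 ± 0.12 and -0.91 ± 0.12, and the whole fall was 4.60-fold (adjusted p = 3.95e-07 in limma). The middle step was lost when any array of 7 or 15 days was left out (adjusted p = 0.0806 to 0.204). KCNK5, which takes part in potassium exit from secreting epithelia, read 5.63 and 4.92 at 24h, 4.34 and 4.33 at 7 days, 3.89 and 3.98 at 15 days, and 4.21 and 4.22 at 30 days. It fell 2.54-fold by 15 days, to readings under 4.35. At 7 days its fall was 0.94 ± 0.19, and -0.58 without replicate 1 of 24h. A further probe set of KCNK5 fell as well (-1.12, -1.32 and -1.42 at 7, 15 and 30 days). KCNK6 fell from 7 to 15 days (-0.46 ± 0.13, adjusted p = 0.0409 in limma), a call that ended without any 1 array of 7, 15 or 30 days (adjusted p = 0.0612 to 0.249). KCNK13 fell at 15 days (-0.50 ± 0.15, adjusted p = 0.023 in limma), to a mean of 3.40, under 4.35, and is named after its value was seen.

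Calcium-activated potassium channels moved in opposite directions. KCNN4, the intermediate-conductance channel that supports chloride secretion in epithelia, read 7.29 and 7.00 at 24h, 5.71 and 5.58 at 7 days, 5.58 and 5.45 at 15 days, and 4.93 and 5.07 at 30 days. It fell 2.83-fold, 3.09-fold and 4.43-fold (log2 change at 30 days -2.15 ± 0.13, SE, adjusted p = 1.01e-06 in limma). A further probe set of KCNN4 fell less (-0.92, -1.03 and -1.38). The last step of KCNN4 (-0.52) was lost when either array of 15 or 30 days was left out (adjusted p = 0.0983 to 0.252). KCNMA1, the large-conductance channel of smooth muscle and other cells, read 6.61 and 6.80 at 24h, 8.16 and 8.02 at 7 days, 8.50 and 8.35 at 15 days, and 7.32 and 7.06 at 30 days. It rose 2.62-fold and 3.30-fold by 7 and 15 days and fell 2.36-fold from 15 to 30 days (adjusted p = 2.90e-04 in limma). The increase left at 30 days (0.48 ± 0.13) was lost without replicate 1 of 24h or of 30 days (adjusted p = 0.0898 and 0.109). KCNN1, KCNN3, KCNT1 and KCNT2 lay between 2.84 and 4.26 and were not called.

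**Figure D3:**
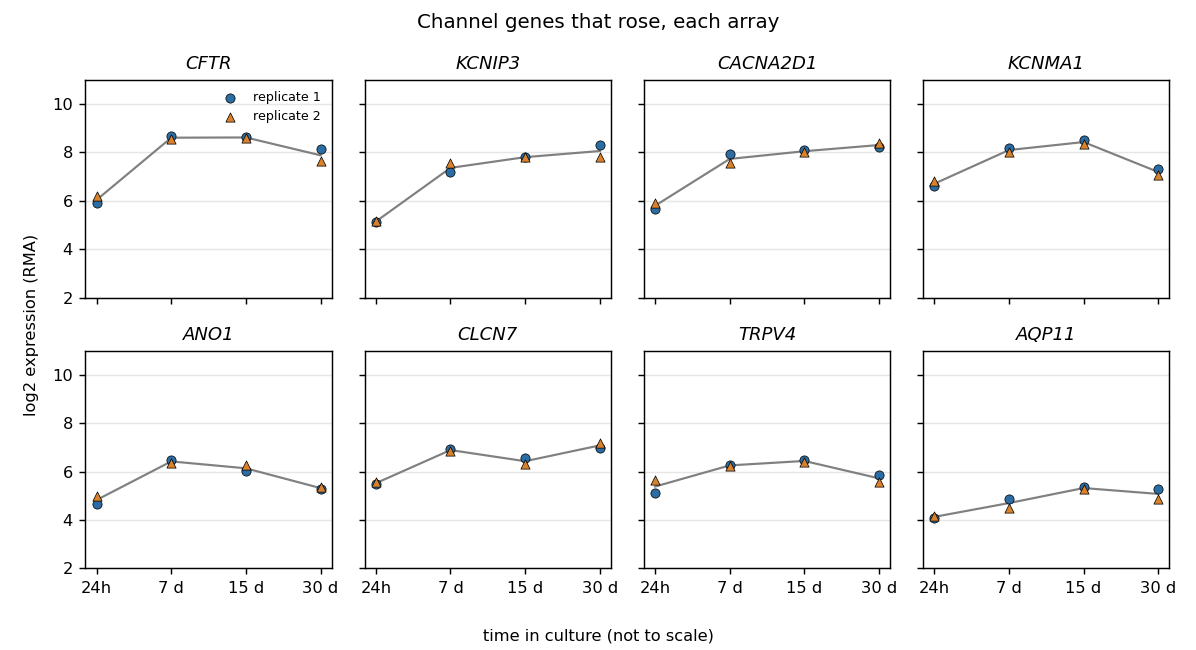
Log2 expression on each array (vertical axis) for 8 channel genes that rose by 7 days, against time in culture, with circles for replicate 1, triangles for replicate 2 and lines through the mean of the 2 arrays. CFTR, KCNMA1, ANO1, TRPV4 and AQP11 are lower in mean at 30 than at 15 days, a fall not called for AQP11. CACNA2D1, KCNIP3 and CLCN7 stand highest in mean at 30 days.

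Of 23 voltage-gated potassium channel pores, 0 rose in limma (0 also at an unadjusted p under 0.05), and 3, 3 and 4 fell by 7, 15 and 30 days. Against 24h, 18.3%, 19.3% and 20.2% of all genes rose at these times, and 15.4%, 18.1% and 21.1% fell. KCNQ5, which carries a slow, non-inactivating current, read 8.94 and 9.04 at 24h, 7.56 and 7.47 at 7 days, 7.31 and 7.40 at 15 days, and 7.09 and 7.40 at 30 days. Its fall was 2.78-fold at 7 days and 3.35-fold at 30 days (log2 change -1.74 ± 0.13, SE, adjusted p = 3.59e-06 in limma), and neither later step was called. A further probe set of KCNQ5 fell by similar amounts (-1.36, -1.56 and -1.83). KCNA3, best known from T cells, read 4.44 and 3.86 at 24h and 3.23 to 3.56 on the 6 later arrays. It fell by 0.79, 0.79 and 0.75, and by 0.49, 0.50 and 0.46 without replicate 1 of 24h, where none of the 3 was called (adjusted p = 0.0780, 0.0661 and 0.0810). These calls also ended without replicate 1 of 7 days (0.0753), replicate 2 of 15 days (0.0777) and replicate 2 of 30 days (0.0950).

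KCND3, a pore of rapidly inactivating currents, fell at all 3 times (-0.51 ± 0.13, -0.67 ± 0.13 and -0.67 ± 0.13), the first lost without replicate 1 of 24h (adjusted p = 0.0980) or of 7 days (0.0759). KCND2 of the same family read 3.84 and 3.18 at 24h, 4.15 and 3.73 at 7 days, 3.21 and 3.40 at 15 days, and 3.12 and 2.74 at 30 days. KCND2 was called in the F test (adjusted p = 0.0242) and in none of the 5 comparisons. KCNA4 fell at 30 days (-0.42 ± 0.14), to a mean of 3.61, under 4.35, and is named after its value was seen. KCNG2, a pore subunit that is silent by itself, lay between 5.10 and 5.88 and was not called. The other 17 pores were not called in any comparison.

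Among the 14 regulatory subunits of potassium channels, 1 rose and 3 fell at each time against 24h. KCNIP3, a calcium-binding protein that attaches to KCND channels and also represses transcription, was the 1 that rose. It read 5.12 and 5.17 at 24h, 7.17 and 7.54 at 7 days, 7.80 and 7.81 at 15 days, and 8.30 and 7.81 at 30 days. The rise was 4.65-fold at 7 days, 6.32-fold at 15 days and 7.53-fold at 30 days (log2 change 2.91 ± 0.17, SE, adjusted p = 8.62e-07 in limma). KCNE3, a small subunit that holds epithelial KCNQ1 channels open, read 7.33 and 6.49 at 24h, 5.21 and 5.19 at 7 days, 4.57 and 4.81 at 15 days, and 4.49 and 4.59 at 30 days. It fell 3.27-fold, 4.65-fold and 5.15-fold, and no later array overlapped with those at 24h. KCNQ1 was not analysed here.

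KCNAB2, a cytosolic beta subunit, read 6.54 and 7.11 at 24h, 5.99 and 5.69 at 7 days, 6.43 and 6.22 at 15 days, and 6.26 and 5.55 at 30 days. It fell at 7 and 30 days (-0.98 ± 0.25 and -0.92 ± 0.25, SE). Both calls ended without replicate 2 of 24h (adjusted p = 0.0873 and 0.103), the first also without replicate 2 of 7 days (0.0862) and the second without replicate 2 of 30 days (-0.56, 0.119). KCNRG, which interferes with assembly of potassium channels, fell by 0.50, 0.54 and 0.37. At 30 days its call ended without replicate 1 of 24h or of 30 days (adjusted p = 0.123 and 0.130). KCNE4 fell at 15 days (-0.33 ± 0.12, adjusted p = 0.0463 in limma), to a mean of 3.08, under 4.35, and is named after its value was seen.

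Of 10 inward rectifiers, which pass potassium more easily into the cell than out of it, 1 rose and 1 fell by 7 days, 0 rose and 2 fell by 15 days, and 1 rose and 2 fell by 30 days. KCNJ2 read 5.64 and 4.84 at 24h, 6.26 and 6.08 at 7 days, 5.28 and 5.11 at 15 days, and 5.90 and 6.09 at 30 days. The arrays at 7 and 30 days were high, and those at 15 days lay within the spread at 24h. The rise by 7 days was 0.93 ± 0.22 (SE), and 0.53 without replicate 2 of 24h (adjusted p = 0.0304 in limma), and it was lost without replicate 1 of 7 days (adjusted p = 0.0617). The step down to 15 days (-0.98) was lost without any 1 of the 4 arrays compared (adjusted p = 0.0629 to 0.122), and the rise at 30 days (0.75) without replicate 2 of 24h (0.35, adjusted p = 0.114) or of 30 days (0.119). Without replicate 1 of 24h, the rise at 30 days was 1.16.

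KCNJ15 read 3.77 and 4.83 at 24h and 2.96 to 3.26 on the 6 later arrays. It fell 2.27-fold, 2.36-fold and 2.10-fold, against readings near the median of the smell and taste receptors, so the floor of the array limits these folds. Without replicate 2 of 24h its changes were -0.65, -0.71 and -0.54 and still called, and the call at 30 days ended without replicate 1 of 30 days (adjusted p = 0.0526). KCNJ14 read 4.41 and 4.26 at 24h, 3.78 and 4.04 at 7 days, 3.51 and 4.06 at 15 days, and 3.69 on both arrays at 30 days. Its fall was 0.55 at 15 days and 0.65 at 30 days. The first call was lost without either array of 24h (adjusted p = 0.0563 and 0.145), replicate 1 of 15 days (-0.28, 0.289) or either 30 days array (0.0506), and the second without replicate 1 of 24h (0.0757) or either 30 days array (0.0599 and 0.0617). KCNJ11, the pore of channels closed by ATP, lay between 4.29 and 4.95 and was not called.

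Of 11 auxiliary subunits of voltage-gated calcium channels, 1 rose and 1 fell by 7 and by 30 days, and 1 rose and 2 fell by 15 days. CACNA2D1, an extracellular auxiliary subunit, read 5.68 and 5.91 at 24h, 7.92 and 7.54 at 7 days, 8.10 and 8.0 at 15 days, and 8.23 and 8.37 at 30 days. It rose 3.82-fold, 4.77-fold and 5.69-fold (log2 change at 30 days 2.51 ± 0.15, SE, adjusted p = 7.81e-07 in limma). CACNB2, a cytosolic auxiliary subunit, read 5.28 and 4.87 at 24h, 4.43 and 4.35 at 7 days, 3.95 and 3.87 at 15 days, and 3.83 and 3.59 at 30 days. It fell by 0.68 ± 0.15, 1.16 ± 0.15 and 1.36 ± 0.15, the last 2 to means under 4.35 and so limited by the floor of the array. CACNA2D2, named after its value was seen, fell at 15 days (-0.36 ± 0.12, adjusted p = 0.0401 in limma). The other 8 auxiliary genes, CACNA2D4 among them, were not called in any comparison.

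Of 6 pore subunits, 0 were called by limma at 7 or 15 days against 24h (0 also at an unadjusted p under 0.05), and 2 rose by 30 days. CACNA1C, the L-type pore of heart and smooth muscle, read 3.54 and 3.22 at 24h, 3.07 and 3.21 at 7 days, 3.63 and 3.53 at 15 days, and 4.06 and 4.28 at 30 days. CACNA1G, a T-type pore, read 3.27 and 3.09 at 24h, 3.16 and 3.01 at 7 days, 3.33 and 3.37 at 15 days, and 4.04 and 3.91 at 30 days. In both genes the arrays at 30 days lay above all others, yet below 4.35, the 90th percentile of the smell and taste receptors. Against 24h both rose by 0.79 (SE 0.14 and 0.12). The step from 15 to 30 days was 0.59 and 0.62, and was lost for both without either 15 days array (adjusted p = 0.110 and 0.181 for CACNA1C, 0.0852 and 0.0642 for CACNA1G). The step was also lost without replicate 2 of 30 days for CACNA1C (0.193) and replicate 1 of 30 days for CACNA1G (0.0610). CACNA1A and CACNA1E, pores known from neurons, lay between 3.38 and 4.24 and were not called, and CACNA1D and CACNA1I were not called either.

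Of 16 TRP genes, which encode cation channels that respond to chemicals, temperature, stretch or emptied calcium stores, 2 rose and 1 fell by 7 and by 15 days, and 1 rose and 1 fell by 30 days. TRPV6, a calcium-selective channel of absorbing epithelia, read 7.59 and 6.34 at 24h, 5.56 and 5.09 at 7 days, 4.22 and 4.39 at 15 days, and 4.02 and 4.13 at 30 days. Both arrays of every later time lay below both at 24h. It fell 3.11-fold, 6.29-fold and 7.40-fold (log2 change at 30 days -2.89 ± 0.33, SE, adjusted p = 6.19e-05 in limma), and the folds at 15 and 30 days, whose means lay under 4.35, are limited by the floor of the array. At 7 days the fall of 1.64 became -1.01 without replicate 1 of 24h.

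TRPV4, which responds to swelling and flow, read 5.12 and 5.64 at 24h, 6.27 and 6.25 at 7 days, 6.50 and 6.38 at 15 days, and 5.87 and 5.58 at 30 days. It rose by 0.87 ± 0.17 (SE) and 1.06 ± 0.17 and was not called at 30 days against 24h. Its fall from 15 to 30 days (-0.72) was lost without either 15 days array (adjusted p = 0.108 and 0.189) or replicate 2 of 30 days (0.211). TRPC1 rose by 0.62 ± 0.15 at 15 days, which was lost without replicate 1 of 24h (adjusted p = 0.0612) or of 15 days (0.0885), and by 0.94 ± 0.15 at 30 days. TRPC4 read 2.79 and 2.87 at 24h, 4.11 and 3.45 at 7 days, 3.24 and 2.91 at 15 days, and 2.97 and 3.18 at 30 days. It rose at 7 days, the 1 time called against 24h (0.95 ± 0.20, and 0.62 without replicate 1 of 7 days), at levels within the range of the smell and taste receptors. TRPM7, a channel fused to a kinase, lay between 7.98 and 8.55, and the partner protein TRPC4AP between 8.83 and 9.02, and neither was called. The 10 other TRP genes were not called in any comparison.

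**Figure D4:**
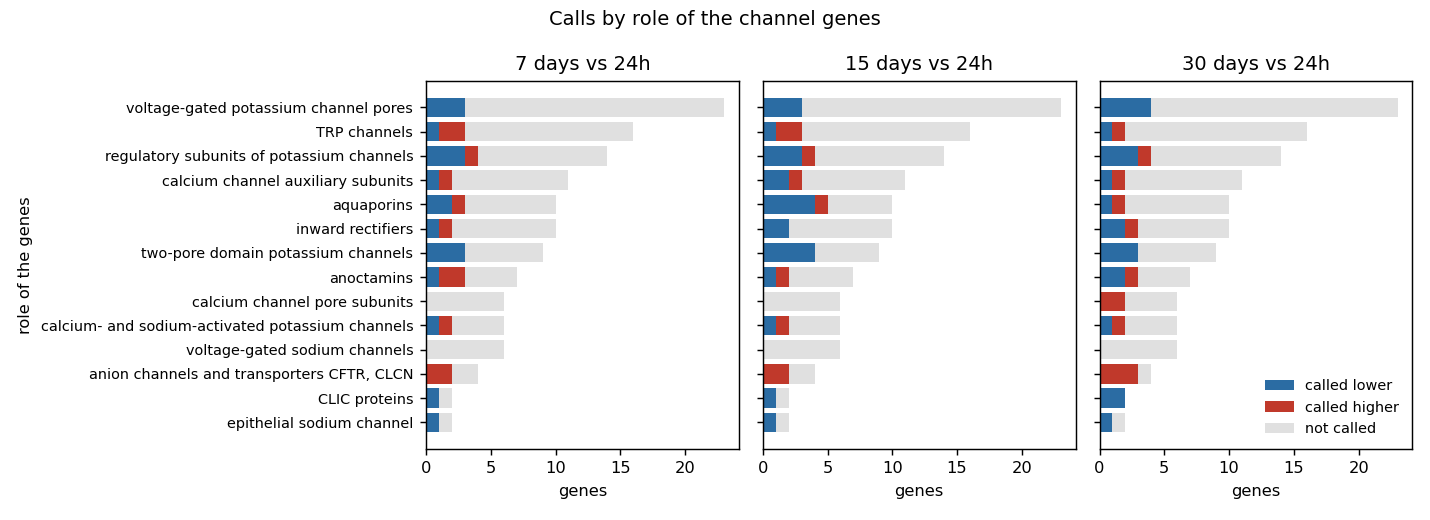
Number of genes (horizontal axis) called lower (blue), called higher (red) and not called (grey) in limma for each role of the channel genes (vertical axis), at 7, 15 and 30 days against 24h. The voltage-gated potassium channel pores and tandem-pore-domain (two-pore) channels hold no red bar, and the CFTR and CLCN group holds no blue bar. Of all genes, 18.3% to 20.2% were called higher and 15.4% to 21.1% lower in these comparisons.

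Between 7 and 15 days, 9 channel genes were called (7.14%, against 13.3% of all genes). AQP11 and CLIC5 rose (1.59%, against 6.58%), and AQP9, ANO5, CLCN7, KCNJ2, KCNK1, KCNK6 and SCNN1A fell (5.56%, against 6.72%). ANO5 fell most (2.70-fold, -1.43 ± 0.17, SE, adjusted p = 5.24e-04 in limma), and the count of 9 ranged from 2 without replicate 1 of 15 days to 17 without either array of 24h, with 5 without replicate 2 of 7 days and 4 without replicate 2 of 15 days. Between 15 and 30 days, 12 were called (9.52%, against 10.1%). CACNA1C, CACNA1G, CLCN6 and CLCN7 rose (3.17%, against 3.94%), and AQP9, ANO1, CFTR, CLIC5, KCNK1, KCNMA1, KCNN4 and TRPV4 fell (6.35%, against 6.11%). That count was 6 without replicate 1 of 15 days, 5 without replicate 2 of 15 days and 6 without replicate 2 of 30 days.

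The calls after 7 days were counted along the 3 steps. Of the 11 channel genes that rose by 7 days, 7 fell in a later step (63.6%, against 27.0% of all genes that rose by 7 days): CFTR, ANO1, KCNMA1 and TRPV4 from 15 to 30 days, and ANO5, KCNJ2 and CLCN7 from 7 to 15 days. The other 4 (CACNA2D1, KCNIP3, TRPC4 and AQP11) had no later fall called. The later fall of CFTR, ANO1, TRPV4, KCNJ2 and CLCN7 was lost when 1 array was left out, as given above. Of the 18 that fell by 7 days, 1 (CLIC5) rose in a later step (5.56%, against 9.95% of all genes that fell by 7 days). Of the same 18, 5 fell again (27.8%, against 16.5%: AQP9, KCNK1, SCNN1A, KCNN4 and CLIC5), and 13 had no later call. CLIC5 is in both counts. The later falls of KCNN4 and CLIC5, and the later rise of CLIC5, were also lost when 1 array was left out, as given above. These counts share arrays, since the 7 days arrays enter both the first step and the second, so they are a description, and no difference between the courses was tested. A further 4 genes (CACNA1C, CACNA1G, CLCN6 and KCNK6) were not called by 7 days and moved later. Against 24h, 7 members were higher (5.56%, against 12% of all genes) and 15 lower (11.9%, against 11.2%) at all 3 later times.

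**Figure D5:**
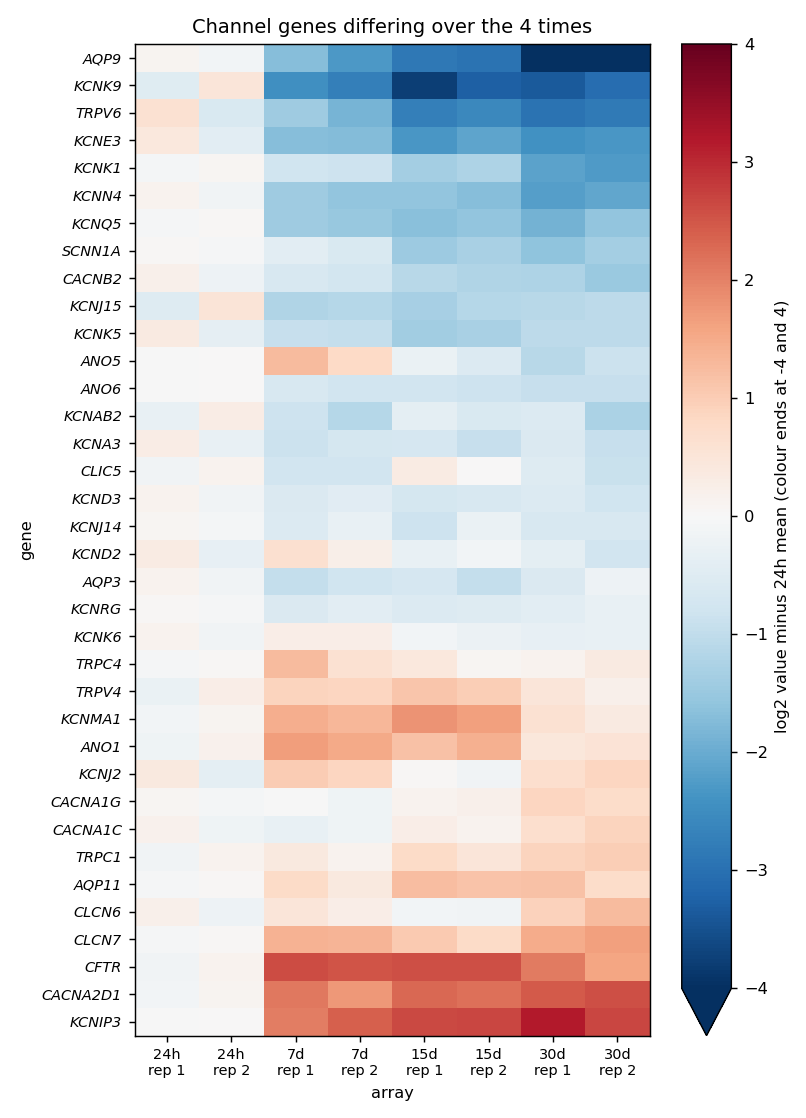
Log2 value of each array minus the gene's 24h mean (colour, blue below and red above, ending at -4 and 4) for the 36 channel genes called in the F test over the 4 times, sorted by the change at 30 days, with 1 column for each of the 8 arrays. AQP9 at 30 days lies beyond the colour scale (-6.11), and KCNIP3, CACNA2D1 and CFTR are at the foot with changes of 2.91, 2.51 and 1.84.

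Other genes of transport were read from lists chosen by function. For comparison with both lists, 18.3%, 19.3% and 20.2% of all genes rose by 7, 15 and 30 days against 24h. Likewise, 15.4%, 18.1% and 21.1% of all genes fell. Of 35 listed partners of epithelial ion and fluid transport, 13 were measured, of which 4 rose and 3 fell by 7 days, 3 rose and 5 fell by 15 days, and 4 rose and 5 fell by 30 days. PRSS8, the protease prostasin that activates the epithelial sodium channel, went from 8.88 at 24h to 8.17, 5.92 and 4.33, a 23.5-fold fall by 30 days (-4.55 ± 0.23, SE, limma adjusted p = 2.79e-07) that ends under 4.35 and is limited by the floor of the array. SLC4A7, a sodium-bicarbonate cotransporter, fell 4.49-fold by 30 days, and ATP1B1, the beta subunit of the sodium pump, fell 4.04-fold. These 3 were named for the largest changes among the called partners, and the partners that rose are not named. The median change over the 13 was -0.02, -0.03 and -0.06 at 7, 15 and 30 days against 24h. Of 65 listed channels outside the symbol rule, 46 were measured, of which 13 rose and 7 fell by 7 days, 13 rose and 10 fell by 15 days, and 11 rose and 12 fell by 30 days. TMC4 of the transmembrane channel-like family fell 9.40-fold by 30 days, to 4.23 and so again to the floor. P2RX7, a cation channel opened by ATP, rose 8.52-fold by 15 days, and GJA1, a gap junction protein, rose 3.50-fold by 15 days.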

How the data were processed

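Per the labels, RNA of pig oviductal epithelial cultures was amplified from 100 ng, labelled with biotin and hybridised to Affymetrix arrays, 1 sample to an array. The authors deposited log2 values per probe set made with RMA (background correction, normalization to a common distribution, summary of probes). RMA is named in the submitters' processing notes, and the range of the values shows a log2 scale. For version, build and filters, nothing was found in the labels. RMA evens out the arrays, so a shift of most genes in 1 direction would not show.

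Of 27558 probe sets, 11974 had 1 symbol in the platform annotation, 15211 had none and stayed unnamed, and 373 with several were not used. Another 6 were left out because symbol and identifier named different genes. Symbols were checked against RefSeq genes of Sscrofa11.1 (names only). Of the 126 members 7 had more than 1 probe set, and for KCNAB3 and KCNS2 both sets held identical values. The 1 probe set naming AQP6 and AQP5 together was left out. No pair of arrays was identical (0 pairs).

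Limma 3.58.1 in R 4.3.3 fitted 1 mean per time to all 8 arrays (4 residual degrees of freedom) and all 10901 genes, two-sided, and calls needed an adjusted p under 0.05 by the Benjamini-Hochberg method. All adjusted p-values in the text come from limma. The fit was tested on simulated data of 10901 genes (the 7 days and 24h contrast). There, 100 of 100 genes changed 2-fold and 100 of 100 changed 4-fold were called, and 7 unchanged genes were called. This recovery holds for the simulated data, in which every gene had 1 common spread taken from the 7 days arrays. The recovery does not give the power for measured genes, whose spread was unequal between genes and between times. Replicate values differed by over 1 log2 unit for 76 genes at 24h, against 8 genes at 7 days. Genes were named by a rule: per comparison the 8 largest increases and 8 largest decreases called, per role the 5 largest spans called in the F test and the 2 highest levels, with values on every array for 3 a role, and 3 genes per partner list. Members, lists and rule were chosen with earlier results of these data known. Alternatives were other scalings, a filter on dim genes, other uses of probe sets, another variance model, a 2-fold threshold, fits without the groups not compared, a block by replicate number, and leaving out each array.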

Additional observations from a re-analysis of the deposited data

How the results depend on the processing

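Calls of channel genes named by the rule numbered 110 over the 5 comparisons. Of these, 96 were recomputed under 17 alternatives. The other 14, of dim genes, were recomputed under 16, since the filter on dim genes left them out. The calls of AQP10, CACNA2D2, KCNE4 and KCNK13 at 15 days and of KCNA4 at 30 days are not among the 110. Of the 110, 0 reversed direction in those run, and 74 (7 of them without the dim filter) stayed called in all run other than the 2-fold threshold. The counts of called members at 7, 15 and 30 days against 24h (29, 32 and 33) fell to 14, 18 and 16 when a change of at least 2-fold was required in addition, and the counts from 7 to 15 days and from 15 to 30 days (9 and 12) fell to 1 and 3. Fitting only the 2 groups compared gave 16 called from 7 to 15 days. With 1 array left out, which leaves 1 time with a lone array assumed to vary like the others, the counts were 27 to 30, 24 to 32, 28 to 33, 2 to 17 and 5 to 13 in the order above, and 33 to 37 in the F test (36 with all arrays). Among other settings, AQP5 at 15 days was lost with median centring (adjusted p = 0.0597), a trended and robust variance (0.0922) and the replicate block (0.0502). CLCN7 from 7 to 15 days was lost with the trended and robust variance (0.0510), with only the groups compared (0.0547) and with the replicate block (0.0507). CLIC2 was lost with only the groups compared at 15 and 30 days (0.103 and 0.0761) and with further quantile normalization at 15 days (0.0671). The last step of KCNN4 was lost with median centring (0.0598), quantile normalization (0.0525) and the mean of its probe sets (0.0880). KCNRG at 30 days was lost with median centring (0.0572), KCNJ14 at 15 days with only the groups compared (0.0634), and KCNK6 from 7 to 15 days with the trended and robust variance (0.0775).

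The labels give the arrays of each time the numbers 1 and 2. Deviations of same-numbered arrays correlated with r of 0.00803 to 0.268 over the 6 pairs of times, and 1 pair was over 0.1. The main fit took the arrays to share only a number, which these values do not settle. With the replicate block the counts were 30, 31, 36, 11 and 13. In the dimmest 25% of genes, 4, 5 and 5 of 55 members were called at 7, 15 and 30 days against 24h (7.27%, 9.09% and 9.09%), against 5.80%, 6.27% and 7.34% of all genes there.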
